A study of Mus musculus with 16 samples.

Results

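The Toll-like receptors are described here in 4 cell types of the unchallenged mouse liver. The 10 members Tlr1, Tlr2, Tlr3, Tlr4, Tlr5, Tlr6, Tlr7, Tlr8, Tlr9 and Tlr13 were taken by symbol from the 47729 genes of the count tables, whatever their level. RNA was sequenced from endothelial cells (ECs), Kupffer cells, hepatic stellate cells (HSCs) and hepatocytes in 16 libraries, with 2 libraries labelled WT and 2 labelled KO for each cell type. KO mice carried floxed Zeb2 alleles and a tamoxifen-inducible Cre driven by the Cdh5 promoter, which is active in endothelium, so that Kupffer cells, HSCs and hepatocytes of KO mice were not the cells targeted. WT mice were littermates without Cre, and both received tamoxifen at 2 mg per day for 5 days as adults. ECs, Kupffer cells and HSCs were sorted by Pan-endo staining, F4/80 staining and vitamin A fluorescence respectively, and hepatocytes were separated by centrifugation. Nothing in the labels says which libraries came from the same liver, so a p-value here measures the spread between these libraries.

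Toll-like receptors detect conserved microbial molecules. TLR1, TLR2, TLR4, TLR5 and TLR6 act at the cell surface on lipoproteins, lipopolysaccharide and flagellin, and TLR3, TLR7, TLR8, TLR9 and TLR13 act in endosomes on nucleic acids. Most of them signal through the adaptor MyD88 to NF-κB, whereas TLR3 uses TRIF and TLR4 uses both. The liver receives gut-derived microbial products through the portal vein, and Kupffer cells, its resident macrophages, are the cells best known for clearing them.

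Gene counts per library ranged from 12872706 to 15690506, so that the 3 reads taken as the floor of detection correspond to between 0.191 and 0.233 counts per 1000000 gene counts of the library (CPM). This floor covers counting error only. Zeb2 was not lower in the ECs labelled KO: it stood at 106 and 106 CPM in WT libraries 34 and 38 and at 199 and 130 CPM in KO libraries 6 and 46 (log2 difference 0.62 ± 0.24 SE, edgeR adjusted p = 0.30). The counts cover the whole gene and not the deleted exon alone, and the libraries are called by their labels throughout. Each list of 10 markers had its highest summed level in the libraries of its own cell type. Elsewhere the median marker was at most at 4.97% of its own level for endothelial, 4.94% for Kupffer, 2.05% for stellate and 22.5% for hepatocyte markers. The highest endothelial marker reached 92.2% in Kupffer library WT 39. Detection alone does not separate the cell types, since nearly all of these markers had reads in every library. RNA of other cell types was also present. Hepatocyte markers had a median level in EC libraries of 10.8% and 22.5% of that in hepatocytes under the WT label, in libraries 34 and 38, against 2.57% and 1.82% under the KO label. Kupffer cell markers reached 4.54% of their Kupffer cell level in HSC library WT 32 and 4.94% in HSC library KO 20, against 0.914% and 1.07% in WT 40 and KO 8. Kupffer library WT 31 stood apart, with the scavenger receptor gene Marco at 9163 CPM against 368 to 670 CPM in the other Kupffer libraries and with Adgre1, which encodes F4/80, at 939 CPM against 1682 to 1929 CPM. In sorted or separated populations, fewer cells of a type and less RNA per cell cannot be told apart.

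Tlr1 and Tlr6 lie next to each other on chromosome 5 (chr5:64924679-64933563 and chr5:64952031-64960097, GRCm38), and Tlr7 and Tlr8 lie next to each other on the X chromosome (chrX:167304929-167330558 and chrX:167242696-167264329). Because 13.6% of the 50-base words of Tlr1 exons also occur in Tlr6, the division of reads between this pair is less certain than for the other members. Tlr3 shares 381 exon bases with an antisense gene that has no row in the count tables. Of the 10 members, 8 had a promoter window in RefSeq (GRCm38.p6). GAGGAA, the core of the sequence bound by the myeloid factor PU.1, was searched on both strands in the 250 bases upstream of each start, and 23.3% of 32851 such windows held it. It was found for 4 members, Tlr1, Tlr8, Tlr9 and Tlr13, and was not found for Tlr2, Tlr3, Tlr5 and Tlr6. The mean level was highest in Kupffer cells for 4 of the 4 members with a match and for 2 of the 4 without one, Tlr2 and Tlr6. It was also highest there for Tlr4 and Tlr7, the members without a window. The share of all genes with a Kupffer cell maximum, with and without the match, is not given. No link between the match and the level is therefore shown. The stretches below end before the first annotated exon base and show the match, or its complement TTCCTC, in capitals where there is one, and Tlr5 is shown as one of the windows without a match. A match is only a description of the letters. Motifs named for ETS factors, ISRE, NF-κB, C/EBP, HNF1, HNF4 and the TATA box were also searched in these windows. The PU.1 core is thus shown as a choice among the motifs searched. Of the others, CAAAGT of HNF4 was in 12.6% of windows and was found for Tlr3, Tlr5, Tlr9 and Tlr13.
Tlr1 (chr5:64933564-64933708, minus strand): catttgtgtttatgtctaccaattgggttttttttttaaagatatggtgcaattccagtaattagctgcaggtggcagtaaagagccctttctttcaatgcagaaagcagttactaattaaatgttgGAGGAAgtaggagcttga
Tlr8 (chrX:167264330-167264479, minus strand): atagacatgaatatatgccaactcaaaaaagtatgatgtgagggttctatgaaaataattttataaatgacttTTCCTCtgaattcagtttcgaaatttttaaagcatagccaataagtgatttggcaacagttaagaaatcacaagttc
Tlr9 (chr9:106222448-106222597, plus strand): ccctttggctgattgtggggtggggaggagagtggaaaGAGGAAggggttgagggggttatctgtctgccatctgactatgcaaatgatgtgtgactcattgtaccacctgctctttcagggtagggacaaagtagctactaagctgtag
Tlr13 (chrX:106143125-106143203, plus strand): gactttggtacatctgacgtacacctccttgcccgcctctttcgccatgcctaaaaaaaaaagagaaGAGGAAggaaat
Tlr5 (chr1:182954638-182954787, plus strand): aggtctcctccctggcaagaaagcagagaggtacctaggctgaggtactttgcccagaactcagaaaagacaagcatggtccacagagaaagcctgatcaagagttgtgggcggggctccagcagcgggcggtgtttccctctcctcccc

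Among the surface receptors, Tlr2, which recognises bacterial lipoproteins, was per kilobase of exon the most abundant of all 10 members in every cell type. In Kupffer cells it stood at 349 and 254 CPM in WT libraries 31 and 39 and at 361 and 427 CPM in KO libraries 27 and 43. In ECs it stood at 85.8 and 38.5 CPM in WT libraries 34 and 38 and at 89.8 and 85.6 CPM in KO libraries 6 and 46. All Kupffer libraries were above all EC libraries, and EC library WT 38, which also held the most hepatocyte RNA, was the lowest of the ECs. HSCs ranged more widely, with Tlr2 at 81.6 and 17.5 CPM in WT libraries 32 and 40 and at 9.33 and 28.6 CPM in KO libraries 8 and 20. Hepatocytes held between 2.32 and 6.76 CPM. Averaged over both labels, Tlr2 was at 347 ± 71.5 CPM in Kupffer cells, 74.9 ± 24.3 in ECs, 34.2 ± 32.5 in HSCs and 4.53 ± 1.92 in hepatocytes (SD, n = 4). In this order Kupffer cells were above ECs (log2 difference 2.54 ± 0.53 SE, edgeR adjusted p = 0.0031) and HSCs above hepatocytes (1.66 ± 0.53, adjusted p = 0.019; lost without HSC WT 32, at 1.14, or without HSC KO 20), whereas ECs and HSCs did not differ beyond their spread (1.01 ± 0.51, adjusted p = 0.17).

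Tlr1 and Tlr6 encode the partners with which TLR2 pairs. Tlr1 was at 30.3 and 42.5 CPM in the WT and 39.2 and 27.3 CPM in the KO Kupffer libraries, and at most at 3.39 CPM in any other library. Kupffer cells did not overlap with the rest for Tlr1, and the difference from HSCs, the next cell type, was 4.71 ± 0.96 on the log2 scale (edgeR adjusted p = 0.0020). Tlr6 was spread more evenly. Kupffer cells averaged 15.8 ± 7.20 CPM, HSCs 6.07 ± 2.88, ECs 5.23 ± 3.01 and hepatocytes 0.583 ± 0.423 (SD, n = 4), and no neighbours in this order passed the test (edgeR adjusted p from 0.070 to 0.65). It was higher in Kupffer cells than in hepatocytes (log2 difference 3.66 ± 0.80, adjusted p = 0.0019) and in HSCs than in hepatocytes (2.22 ± 0.77, adjusted p = 0.025; lost without HSC WT 32 or hepatocyte WT 29, and 5.88 without hepatocyte KO 41).

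**Figure D1:**
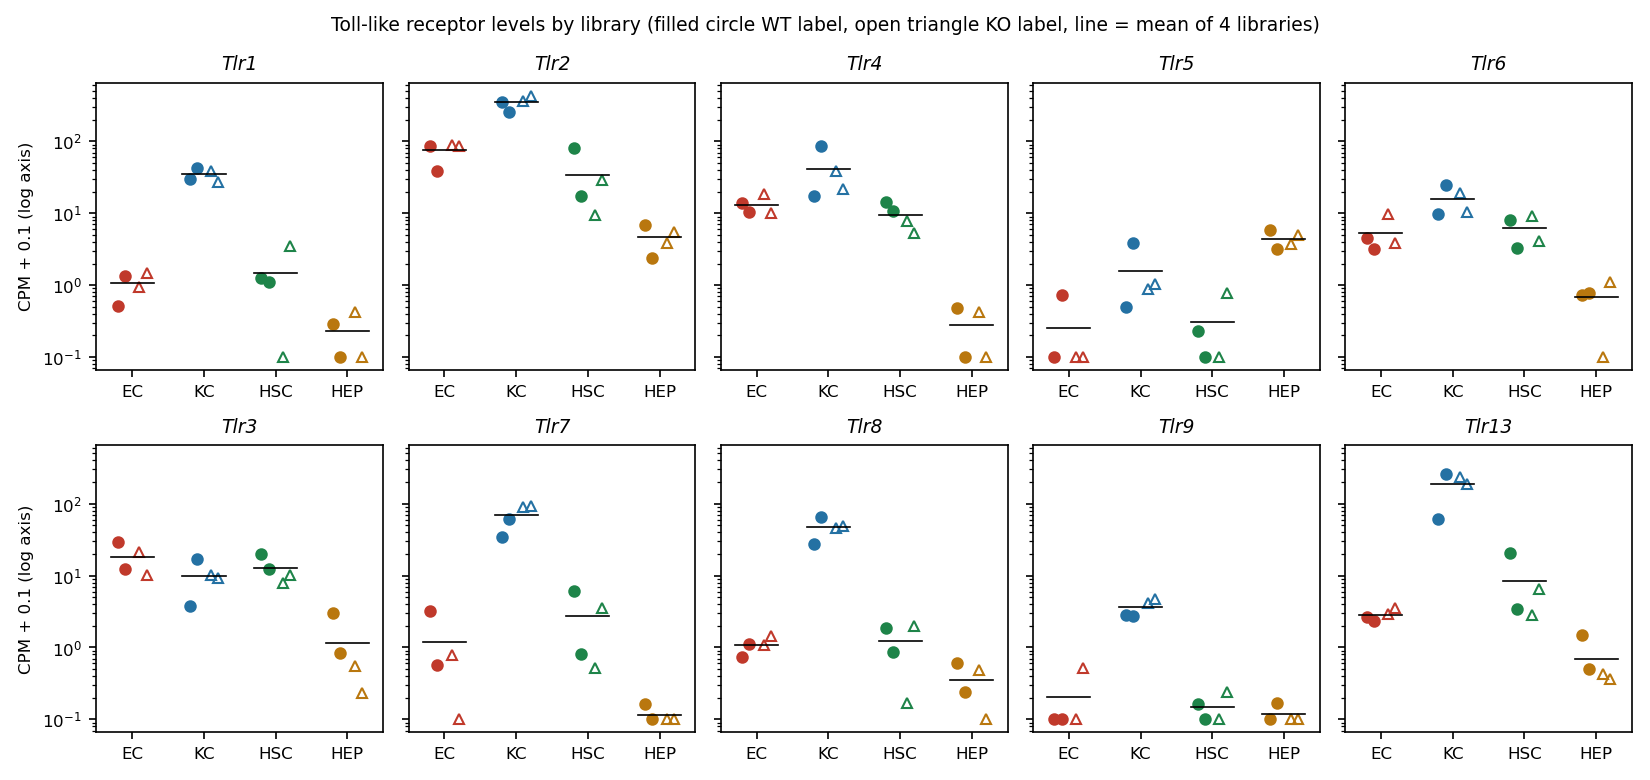
Level of each Toll-like receptor gene in the 16 libraries, as CPM + 0.1 on a log axis, by cell type (HEP, hepatocytes; KC, Kupffer cells); filled circles are libraries labelled WT, open triangles those labelled KO, and lines the mean of 4 libraries. Kupffer libraries lie above every other library for 6 of the 10 genes (Tlr1, Tlr2, Tlr7, Tlr8, Tlr9 and Tlr13), and hepatocytes have the highest mean for Tlr5 only.

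Tlr4, the receptor for lipopolysaccharide, varied widely among the Kupffer libraries. It stood at 17.4 and 85.4 CPM in WT libraries 31 and 39 and at 38.2 and 21.8 CPM in KO libraries 27 and 43. ECs held 13.9 and 10.3 CPM under the WT label and 18.2 and 9.87 CPM under the KO label, and HSCs 14.4 and 10.7 CPM under WT and 7.74 and 5.19 CPM under KO. The highest EC library thus lay above the lowest Kupffer library, and in hepatocytes 2 of 4 libraries had no Tlr4 read and the others at most 0.382 CPM. Kupffer cells passed the test against ECs (log2 difference 1.87 ± 0.57 SE, edgeR adjusted p = 0.026) and against HSCs (2.16 ± 0.58, adjusted p = 0.011), ECs and HSCs did not differ (0.28 ± 0.56, adjusted p = 0.77), and HSCs were above hepatocytes (4.51 ± 0.76, adjusted p = 0.00029). The call of Kupffer cells against ECs was lost on leaving out any one of 6 libraries (all 4 of ECs, Kupffer WT 39 and Kupffer KO 27), and the log2 difference ranged from 1.22 to 2.26 over all libraries left out in turn. Without Kupffer WT 39 the call against HSCs was lost as well (1.46, adjusted p = 0.074).

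Tlr5, the flagellin receptor, was the one member with its highest mean in hepatocytes, followed by Kupffer cells, HSCs and ECs. It stood at 5.74 and 3.07 CPM in hepatocyte WT libraries 29 and 33 and at 3.61 and 4.85 CPM in KO libraries 25 and 41. Kupffer libraries held 0.402 and 3.72 CPM under WT and 0.791 and 0.948 CPM under KO, so that library WT 39 alone reached the hepatocyte range. Among ECs and HSCs, 6 of 8 libraries were at or under the floor of 3 reads. Hepatocytes were above ECs (log2 difference 7.56 ± 1.51 SE, edgeR adjusted p = 0.0013) and HSCs (5.84 ± 1.32, adjusted p = 0.0029), and the difference from Kupffer cells lay at the threshold without passing it (2.78 ± 1.10, adjusted p = 0.050). Kupffer cells were above ECs (4.78 ± 1.45, adjusted p = 0.027), a call lost on leaving out any one of 5 libraries (EC WT 34, KO 6 or KO 46, or Kupffer WT 39 or KO 43), with differences from 3.79 to 7.21. In Kupffer libraries KO 27 and KO 43 Tlr5 was at 18.3% and 21.9% of its hepatocyte mean, within the range of the 10 hepatocyte markers there, which reached 18.4% and 22.1%. In WT 31 it was at 9.32% and in WT 39 at 86.2%, above every marker, of which the highest stood at 6.47% and 14.04%.

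Among the endosomal members, Tlr13, which recognises bacterial ribosomal RNA, had the highest mean per kilobase of exon in Kupffer cells. It stood there at 60.2 and 256 CPM in WT libraries 31 and 39 and at 235 and 190 CPM in KO libraries 27 and 43, with library WT 31 well below the rest. In ECs it ranged from 2.25 to 3.41 CPM and in hepatocytes from 0.270 to 1.40 CPM. In HSCs it stood at 20.4 and 3.33 CPM in WT libraries 32 and 40 and at 2.76 and 6.50 CPM in KO libraries 8 and 20. The libraries with most Tlr13, WT 32 and KO 20, were those with most Kupffer marker RNA. Kupffer cells were above HSCs by 4.65 ± 0.61 on the log2 scale (edgeR adjusted p = 8.5e-05). HSCs passed the test against ECs (1.70 ± 0.57, adjusted p = 0.046), and this call was lost on leaving out any one of 10 libraries (all 4 of ECs, HSC WT 32 and KO 20, Kupffer KO 27 and KO 43, and hepatocyte KO 25 and KO 41), with differences from 0.82 to 2.15.

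Tlr7 and Tlr8 recognise single-stranded RNA or its breakdown products, and Tlr9 recognises CpG DNA. Tlr7 stood at 34.7 and 61.5 CPM in the WT and 89.7 and 92.0 CPM in the KO Kupffer libraries, and at most at 5.96 CPM elsewhere, in HSC library WT 32. Tlr8 ranged from 27.7 to 65.1 CPM in Kupffer cells and reached 1.87 CPM elsewhere. Tlr9 was low even in Kupffer cells, at 2.75 and 2.61 CPM under the WT label and 4.02 and 4.60 CPM under the KO label. For all 3 genes Kupffer cells were above HSCs, by 4.73 ± 0.91, 5.41 ± 0.79 and 5.96 ± 1.35 on the log2 scale (edgeR adjusted p = 0.0017, 0.00020 and 0.0055). HSCs came next after Kupffer cells for Tlr7 and Tlr8, and ECs for Tlr9, where Kupffer cells were above ECs by 6.40 ± 1.42 (adjusted p = 0.0065). The neighbours further down did not pass the test (adjusted p from 0.088 to 0.70). In hepatocytes 1 read of Tlr7 was counted in 4 libraries, against 4180 in Kupffer cells, which gives a ratio of 4217 with a 95% counting interval from 756 to 166593. For Tlr9, 3 reads in HSCs and 1 in hepatocytes against 210 in Kupffer cells gave ratios of 70.0 (23.6 to 342) and 212 (37.6 to 8407). These counting ratios use library totals without TMM factors, unlike the log2 differences. With TMM the edgeR fold change over hepatocytes was 2529 for Tlr7 and 130 for Tlr9, and that over HSCs was 62.4 for Tlr9.

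Tlr3, the receptor for double-stranded RNA, was the one endosomal receptor without a Kupffer cell maximum. In ECs it stood at 29.3 and 12.3 CPM in WT libraries 34 and 38 and at 20.8 and 10.2 CPM in KO libraries 6 and 46. HSCs held 19.9 and 12.3 CPM under WT and 7.88 and 10.0 CPM under KO, and Kupffer cells 3.62 and 16.8 CPM under WT and 10.1 and 9.001 CPM under KO. These 3 cell types overlapped, and neither ECs and HSCs (log2 difference 0.33 ± 0.52 SE, edgeR adjusted p = 0.70) nor HSCs and Kupffer cells (0.25 ± 0.52, adjusted p = 0.73) passed the test. All 3 were above hepatocytes, which held 0.135 to 2.87 CPM, by 3.26 ± 0.61 for ECs, 2.93 ± 0.60 for HSCs and 2.68 ± 0.60 for Kupffer cells (edgeR adjusted p = 0.00060, 0.0013 and 0.0023). With WT libraries only, which leaves 2 a cell type, none of these passed: the differences were 2.21 for ECs, 2.11 for HSCs and 1.47 for Kupffer cells (adjusted p = 0.070, 0.083 and 0.20).

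All 4 Kupffer libraries lay above all 12 others for 6 of the 10 members, where 7.37% of the 17214 genes tested did. By the test, 8 members were higher in Kupffer cells than in ECs, where 14.5% of genes were, and none was higher in ECs, where 17.5% of genes were. Against HSCs, 7 of 10 were higher in Kupffer cells, beside 20.6% of genes, and against hepatocytes 9 of 10, beside 29.3%. ECs and HSCs differed in 1 member, Tlr13, beside 26% of genes. Against hepatocytes, 3 members were higher in ECs and 1 lower, beside 33.2% and 25.5% of genes, and 6 were higher in HSCs and 1 lower, beside 34% and 24.4%. The hepatocyte contrasts depend on scaling: the TMM factors were 0.497 to 0.588 in hepatocyte libraries and 1.34 to 1.47 in ECs, and dividing by library totals alone raises the log2 difference of all genes by a median of 1.36 for ECs, 1.04 for Kupffer cells and 1.11 for HSCs over hepatocytes. With library totals 8 members, in place of 4, passed between ECs and hepatocytes and 9, in place of 7, between HSCs and hepatocytes. No called direction was turned. The share of all genes passing with library totals is not given, so no rise particular to the members is shown. With WT libraries only, 10 of the 36 called differences lost the call. Beside the 3 of Tlr3 these were Tlr2 (2.65, adjusted p = 0.058), Tlr4 (2.38, adjusted p = 0.081) and Tlr5 (3.02, adjusted p = 0.24) in Kupffer cells over ECs, Tlr4 in Kupffer cells over HSCs (2.04, adjusted p = 0.11), Tlr13 in HSCs over ECs (2.60, adjusted p = 0.13), and Tlr6 (2.00, adjusted p = 0.054) and Tlr13 (2.66, adjusted p = 0.065) in HSCs over hepatocytes. With library totals, Tlr4 in Kupffer cells over ECs (1.59, adjusted p = 0.057) and Tlr13 in HSCs over ECs (1.44, adjusted p = 0.088) lost it.

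Levels of different genes were compared per kilobase of exon. Tlr2 made up 53.96% of the summed level of the 10 receptors in Kupffer cells, 73.9% in ECs, 55.5% in HSCs and 49.3% in hepatocytes. The second gene differed between cell types. By the mean it was Tlr13 in Kupffer cells (20.2%), Tlr3 in ECs (10.4%) and HSCs (11.8%), and Tlr5 in hepatocytes (29.5%). The second place of Tlr3 did not hold in every HSC library. In WT 32 Tlr13 stood at 4.73 CPM per kb and Tlr3 at 3.81, and in KO 8 Tlr6 stood at 2.45 and Tlr3 at 1.51. In Kupffer cells Tlr13 (43.1 ± 20.4 CPM per kb, SD, n = 4) was followed by Tlr7 (17.0 ± 6.62), Tlr8 (13.04 ± 4.26), Tlr1 (10.4 ± 2.14), Tlr4 (7.33 ± 5.60) and Tlr6 (4.24 ± 1.93), and the library ranges of neighbours in this order overlap from Tlr13 down, whereas those of Tlr2 and Tlr13 do not. In ECs Tlr3 (3.49 ± 1.68) was followed by Tlr4 (2.35 ± 0.696) and Tlr6 (1.40 ± 0.808), with the other members below 1 CPM per kb. The shares varied among the Kupffer libraries. In WT 31 Tlr2 made up 71.3% and Tlr13 8.62%, against 38.9% to 59.0% and 18.4% to 27.5% in the other 3, and Tlr2 came first and Tlr13 second in each of the 4.

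**Figure D2:**
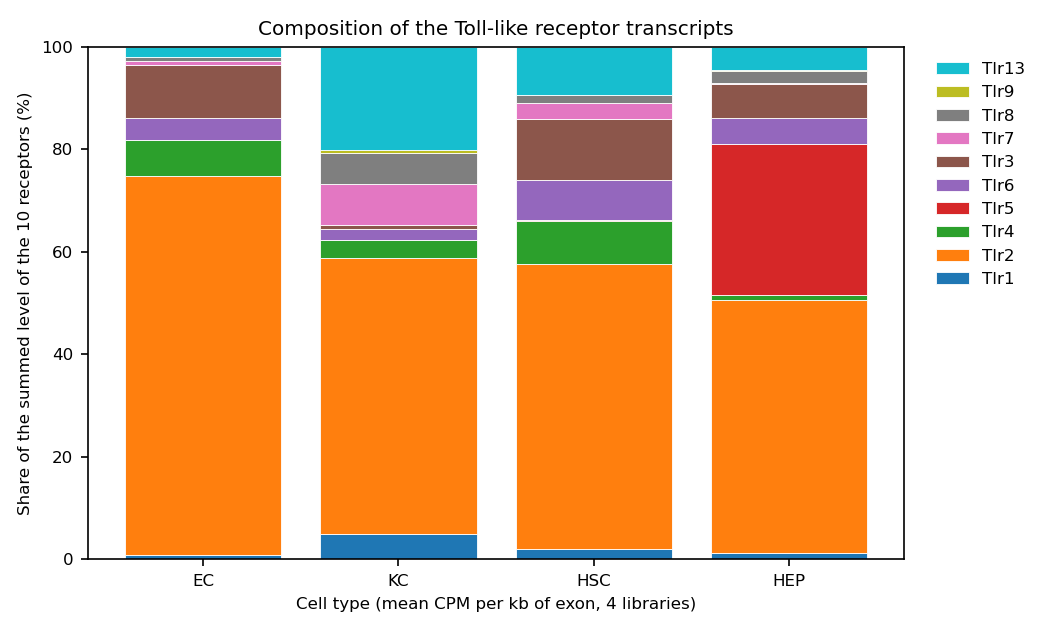
Share of each gene in the summed level of the 10 Toll-like receptors, in percent, from the mean CPM per kilobase of exon over the 4 libraries of each cell type. Tlr2 takes the largest share in each bar, followed by Tlr13 in Kupffer cells (KC), Tlr3 in ECs and HSCs and Tlr5 in hepatocytes (HEP). The bars show means, and the second gene varied among the HSC libraries.

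Because Kupffer marker RNA was present in every library, each receptor was expressed as a percentage of its Kupffer cell mean and set beside the same percentage for the 10 Kupffer markers in the same library. In ECs the median marker stood at 0.895% to 2.33% and the highest marker at no more than 3.79%. Tlr2 (11.1% to 25.9%), Tlr4 (24.3% to 44.7%), Tlr6 (19.7% to 61.3%) and Tlr3 (103% to 296%) were above every marker in 4 of 4 EC libraries. Tlr13 (1.21% to 1.84%) was within the range of the markers in 4 of 4 libraries and Tlr8 (1.34% to 2.82%) in 3 of 4. In HSCs, Tlr2, Tlr3, Tlr4 and Tlr6 were again above every marker of their library in 4 of 4, down to 2.69% for Tlr2 in KO library 8, where the highest marker was at 1.21%. Tlr7 was within the range in 4 of 4 HSC libraries and Tlr13 in 2 of 4. In hepatocytes, Tlr5 (209% to 391.5%) and Tlr3 (1.36% to 29.0%) were above every marker in 4 of 4 libraries, Tlr13 was within the range in 4 of 4, and Tlr2 (0.667% to 1.94%) was within it in 2 and above it in 2. The part of Kupffer cell RNA in the levels that lie within the range was not tested.

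**Figure D3:**
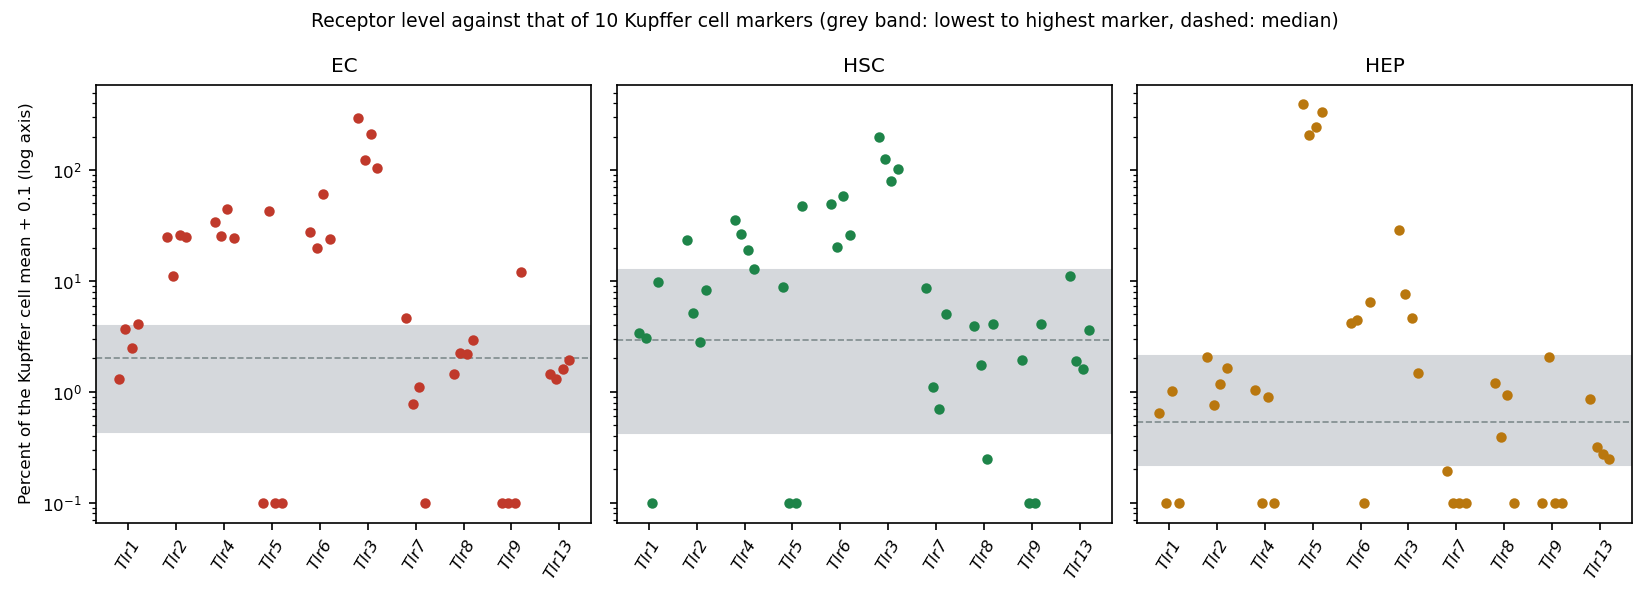
Level of each Toll-like receptor in the libraries of ECs, HSCs and hepatocytes (HEP), as a percentage of its mean in Kupffer cells + 0.1 on a log axis, one point per library. The grey band runs from the lowest to the highest of 10 Kupffer markers over the 4 libraries and the dashed line is their median; Tlr3, Tlr4 and Tlr6 lie above the band in ECs and HSCs, and Tlr13 lies within it in all 3 panels.

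Between the WT and KO labels, no Toll-like receptor passed the test in any cell type. In ECs 7 members were tested and 0 passed, where 2.08% of 14631 genes did, and 0 of 10 in Kupffer cells, 0 of 8 in HSCs and 0 of 4 in hepatocytes passed, where 0% of genes did. DESeq2 also called 0 in each. At an unadjusted p under 0.05 by edgeR there was 1 member in Kupffer cells, Tlr7, beside 706 of 13867 genes. There were 0 in ECs, HSCs and hepatocytes, beside 2192 of 14631, 1260 of 14390 and 821 of 11548 genes. In the 4 cell types the libraries of both labels did not overlap for 1, 3, 2 and 1 of the tested members, beside 48.2%, 36.6%, 39.8% and 39.5% of all genes tested. In simulated counts the same test recovered between 41.0% and 54.2% of genes changed by 2 on the log2 scale, depending on the cell type. Changes of this size or smaller are therefore not shown to be absent. The changed genes were drawn from those above a minimum mean count, which some tested members did not reach. These were Tlr1 and Tlr8 in ECs (54 and 55 reads over 4 libraries), Tlr8 in HSCs (68) and Tlr6 and Tlr3 in hepatocytes (35 and 65). Recovery at their counts was not tested.

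In Kupffer cells Tlr7 was 0.89 ± 0.33 higher on the log2 scale under the KO label (edgeR unadjusted p = 0.032, adjusted p = 0.93) and higher in both KO libraries than in either WT library, as were Tlr2 (0.32 ± 0.34) and Tlr9 (0.63 ± 0.73). For Tlr13 (0.43 ± 0.58), Tlr4 (-0.78 ± 0.67) and Tlr5 (-1.21 ± 1.31) the KO libraries lay between the WT libraries 31 and 39, and leaving out WT 39 turned Tlr4 to 0.61 and Tlr5 to 0.94, while leaving out WT 31 turned Tlr13 to -0.21. In ECs the values ranged from -0.45 for Tlr3 to 0.81 for Tlr6. Tlr2 was 0.49 ± 0.38 higher under the KO label (adjusted p = 0.62); leaving out WT 34, so that WT 38 alone stood for the WT label and was assumed to vary like the KO libraries, gave 1.23 (adjusted p = 0.0498), and leaving out WT 38 gave 0.01. Hepatocyte marker RNA was highest in WT 38, and its part in the level of Tlr2 was not tested.

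In HSCs the values lay between -1.39 and 0.67. Tlr4 (-0.99 ± 0.42, edgeR adjusted p = 0.59) and Tlr3 (-0.86 ± 0.42, adjusted p = 0.66) were lower in both KO libraries than in either WT library. Tlr2 (-1.39 ± 0.87) and Tlr13 (-1.36 ± 0.95) overlapped between labels and turned to 0.14 and 0.49 without WT 32, the library with most Tlr2 and much Kupffer marker RNA. With no filter on low counts Tlr2 passed in HSCs (-1.40, adjusted p = 0.022), the one setting with all 4 libraries in which a member did. In hepatocytes Tlr3 was at 2.87 and 0.750 CPM under WT and 0.451 and 0.135 CPM under KO (-2.52 ± 1.06, adjusted p = 0.70), on 7 and 2 reads in the KO libraries. Tlr5 (0.03 ± 0.49) and Tlr2 (0.09 ± 0.60) gave values near 0. In the 6 tests of whether a label difference itself differed between a pair of cell types, 0 of 10 members passed in each. This held for edgeR and DESeq2 alike. Calls by edgeR covered 2.06% of genes in ECs against Kupffer cells, 0.0349% in ECs against HSCs and 0.0697% in ECs against hepatocytes. They covered 0.593% in Kupffer cells against HSCs, 0.0116% in Kupffer cells against hepatocytes and 0.0755% in HSCs against hepatocytes. By edgeR 1 member, Tlr5 in ECs against HSCs, had an unadjusted p under 0.05, beside 835 of 17214 genes. These tests have little power. In simulated counts for ECs against Kupffer cells, 3.30% of changes by 2 and 36.7% of changes by 3 on the log2 scale were recovered. That simulation gave each gene the same mean level in all cell types before the change. By contrast, 8 of 10 members differed between ECs and Kupffer cells, and recovery at the members' own levels was not tested.

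**Figure D4:**
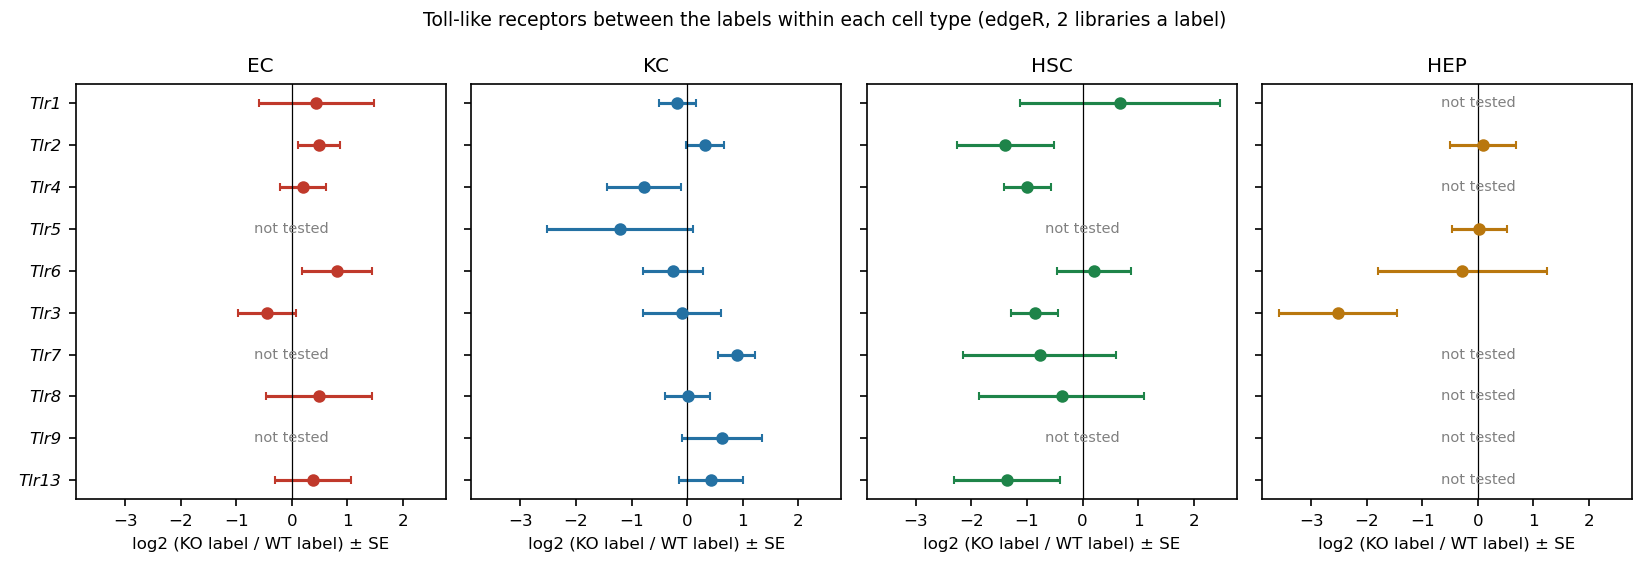
Log2 ratio of the KO to the WT label for each Toll-like receptor in ECs, Kupffer cells (KC), HSCs and hepatocytes (HEP), from edgeR with 2 libraries a label; bars are 1 standard error and genes removed by the low-count filter are marked as not tested. No value passes the test, and the range runs from -2.52 for Tlr3 in hepatocytes to 0.89 for Tlr7 in Kupffer cells.

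The machinery around the receptors was read from a list of 52 genes. Of these 23 were higher in Kupffer cells than in ECs and 3 lower, beside 14.5% and 17.5% of all genes tested, and the median log2 difference of ECs from Kupffer cells was -0.82 over the list and 0.13 over all genes. Against HSCs, 32 were higher in Kupffer cells and 2 lower, beside 20.6% and 22.3% of all genes, with medians of 1.24 over the list and -0.09 over all genes. Among ligand delivery genes, Cd14, the lipopolysaccharide and lipoprotein co-receptor, averaged 3438 ± 1206 CPM in Kupffer cells, 734 ± 123 in ECs, 130.0 ± 92.5 in HSCs and 30.6 ± 8.62 in hepatocytes (SD, n = 4). Ly96, which encodes the MD-2 subunit that TLR4 needs, was at 34.2 CPM in ECs and 25.2 CPM in Kupffer cells, which did not pass the test (log2 difference 0.10 ± 0.35, edgeR adjusted p = 0.88), and was higher in ECs than in HSCs (1.97 ± 0.37, adjusted p = 0.0019). Cd36, a scavenger receptor that hands ligands to TLR2 and TLR6, was higher in ECs (976 CPM) than in Kupffer cells (322 CPM; 1.45 ± 0.40, adjusted p = 0.016). Lbp, the lipopolysaccharide-binding protein of plasma, was at 157 CPM in hepatocytes and 123 CPM in ECs. These levels are CPM without the TMM factors, which were 0.497 to 0.588 in hepatocyte libraries and 1.34 to 1.47 in ECs. Scaling by the factors raises the hepatocyte level and lowers that of ECs, so the levels are further apart than CPM shows. Hepatocyte markers stood at 10.8% and 22.5% of their own level in the WT EC libraries, and their part in Lbp was not tested. Cd180 and Ly86, an atypical receptor and its partner, were at 28.3 and 207 CPM in Kupffer cells and at most at 2.07 and 6.53 CPM on average elsewhere.

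Of the 8 chaperone and trafficking genes, 6 were higher in Kupffer cells than in ECs, beside the 14.5% of all genes, and 0 lower. Unc93b1, which carries endosomal receptors out of the endoplasmic reticulum, was at 1874 CPM in Kupffer cells and 249 CPM in ECs (log2 difference 3.24 ± 0.26, edgeR adjusted p = 3.4e-06), and Lgmn, which encodes a protease of the endosome, was at 4174 and 1501 CPM. The folding factors Hsp90b1 and Cnpy3, which many of the receptors need to mature, were at 691 and 168 CPM in Kupffer cells, 1135 and 117 in ECs, 1127 and 114 in HSCs and 555 and 58.7 in hepatocytes. The adaptor gene Myd88 was at 159 CPM in Kupffer cells, 116 in ECs, 200.02 in HSCs and 25.0 in hepatocytes, and ECs were below HSCs (1.01 ± 0.28, adjusted p = 0.020) but did not pass against Kupffer cells (0.78 ± 0.28, adjusted p = 0.052). Tirap, the adaptor that bridges TLR2 and TLR4 to MyD88, was at 22.7 to 35.0 CPM on average in the 4 cell types. Ticam2, which encodes the adaptor TRAM that links TLR4 to TRIF, was at 32.9 CPM in Kupffer cells and at 0.618, 0.373 and 0.214 CPM in ECs, HSCs and hepatocytes (5.99 ± 0.75 against ECs, adjusted p = 7.6e-05). Ticam1, which encodes TRIF itself, was at 41.9, 19.1, 14.5 and 6.74 CPM in the same order. Pik3ap1, an adaptor that links the receptors to PI3-kinase, was at 211 CPM in Kupffer cells against 9.89 in ECs (4.88 ± 0.49, adjusted p = 1.6e-05). Irf5, a transcription factor activated below MyD88, was at 375 CPM in Kupffer cells and 14.3 CPM in ECs (5.04 ± 0.38, adjusted p = 2.1e-06), and the kinase gene Irak2 at 142 and 37.1 CPM. The kinase genes Ikbkb and Tbk1 were at 144 and 94.2 CPM in Kupffer cells and 120.3 and 59.1 CPM in ECs. Of the other transcription factors, Rela was at 322, 265, 265 and 83.8 CPM in Kupffer cells, ECs, HSCs and hepatocytes. Nfkb1 was at 170.5, 167, 47.3 and 4.47 CPM in the same order. Irf7 was at 216, 146, 142 and 23.5 CPM and Irf3 at 93.7, 101, 90.6 and 64.4 CPM, again in this order. None of Rela, Nfkb1, Irf7 and Irf3 passed between Kupffer cells and ECs (edgeR adjusted p from 0.099 to 0.55). All levels here are CPM without the TMM factors of the tests, 0.497 to 0.588 in hepatocyte and 1.01 to 1.21 in Kupffer libraries. Scaling by these factors raises the hepatocyte levels and lowers the Kupffer cell levels. The place of hepatocytes by CPM can therefore differ from that by the test, as for Irf3, where the levels are close.

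The inhibitors divided between cell types. Nfkbia, Nfkbie and Tnfaip3, which restrain NF-κB and are themselves among its targets, were higher in Kupffer cells than in ECs (log2 differences 2.21 ± 0.47, 3.12 ± 0.41 and 2.84 ± 0.66, edgeR adjusted p = 0.0037, 0.00012 and 0.0060). Tollip, at 138 CPM in Kupffer cells and 152 CPM in ECs, did not pass. Sigirr, which encodes an inhibitory receptor with a TIR domain, was higher in ECs (55.1 CPM) than in Kupffer cells (4.36 CPM; log2 difference 3.30 ± 0.31, edgeR adjusted p = 9.2e-06), and so was Socs1 (98.1 against 7.19 CPM; 3.48 ± 0.28, adjusted p = 3.1e-06). The rodent receptor Tlr12, which recognises a profilin of protozoa together with TLR11, was at 157 ± 31.4 CPM in Kupffer cells and above HSCs by 3.17 ± 0.36 (adjusted p = 2.9e-05). Per kilobase of exon it was at 49.5 CPM, beside 43.1 for Tlr13, whereas Tlr11 averaged 1.79 CPM or less in each cell type.

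**Figure D5:**
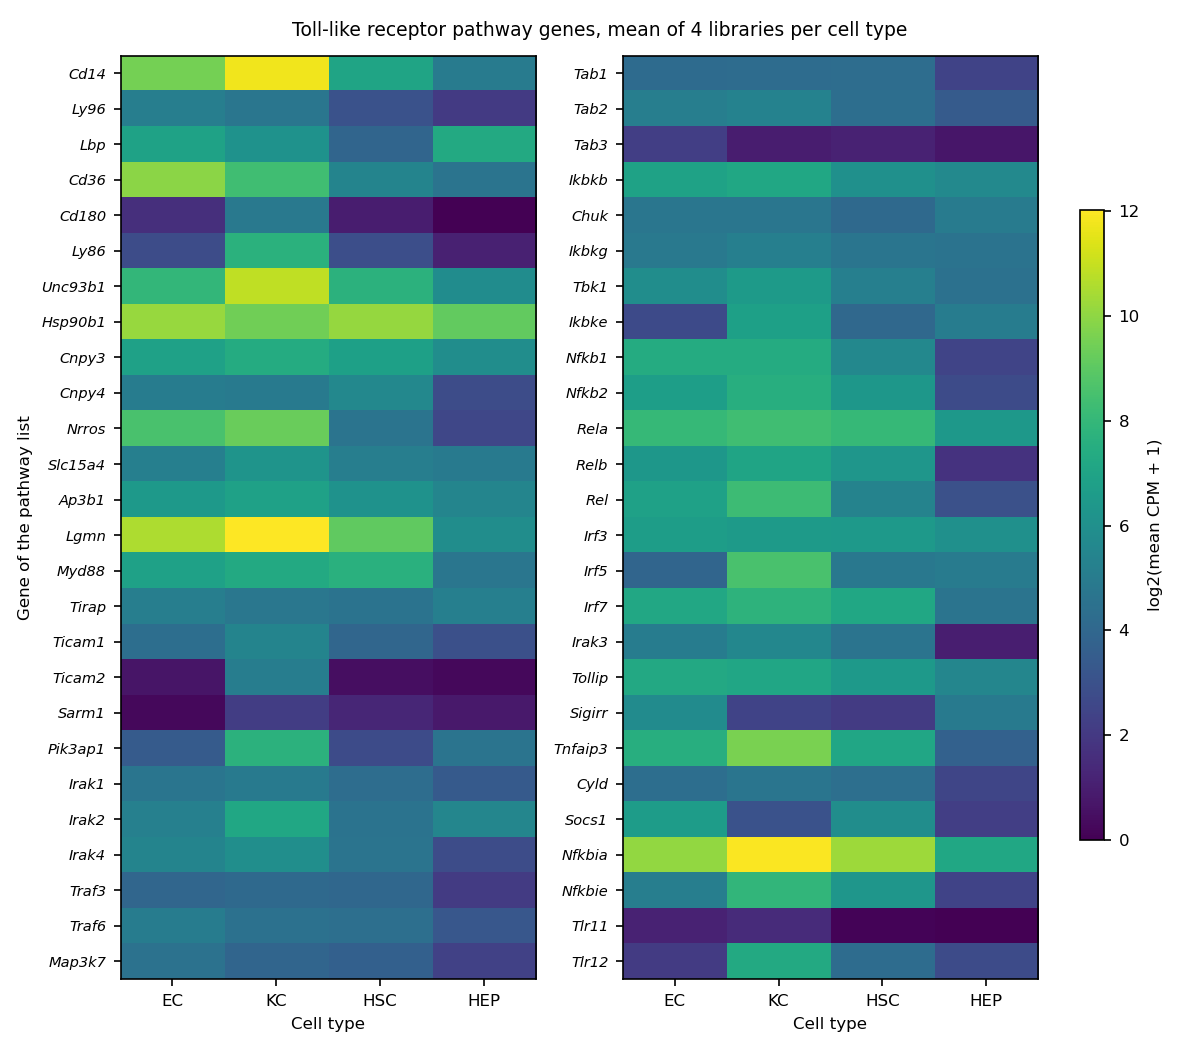
Level of 52 genes of the Toll-like receptor pathway as log2(mean CPM + 1) over the 4 libraries of ECs, Kupffer cells (KC), HSCs and hepatocytes (HEP). Ticam2, Irf5, Unc93b1 and Tlr12 are brightest in Kupffer cells, and Sigirr and Socs1 are brighter in ECs than in Kupffer cells.

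Between the labels, 1 of the 50 pathway genes tested in ECs passed, a share close to the 2.08% of all genes there. An unadjusted p under 0.05 by edgeR was found for 7 of these 50, beside 2192 of 14631 genes. No pathway gene passed in the other cell types. The Kupffer cell comparison had 6 of 52 under this level, beside 706 of 13867 genes. For HSCs the count was 9 of 50, beside 1260 of 14390, and for hepatocytes 3 of 48, beside 821 of 11548. DESeq2 called 3 in ECs (Tnfaip3, Rel and Pik3ap1), 1 in HSCs (Rel) and 0 in the others. Over all genes DESeq2 called 996 for ECs and 407 for HSCs, and how many it tested is not given. The gene passing by edgeR, Tnfaip3, which encodes the ubiquitin-editing inhibitor A20, stood at 408 and 209 CPM in EC libraries WT 34 and 38 and at 51.3 and 61.9 CPM in KO libraries 6 and 46, and fell by 2.45 ± 0.38 on the log2 scale (edgeR adjusted p = 0.037). Both KO libraries lay below both WT libraries. The call was lost on leaving out either KO library (adjusted p = 0.12 and 0.085), on leaving out 857 hepatocyte-enriched genes (0.15) and with all 16 libraries in one fit (0.32), at differences from -2.26 to -2.64. Several lists of markers of other cells, though not all, moved with the label in the same 4 EC libraries. Hepatocyte markers had medians of 10.8% and 22.5% of their own level under WT against 2.57% and 1.82% under KO, and stellate markers 1.54% and 2.05% against 0.481% and 0.728%. The summed level of 6 B cell markers was 94.8 and 195 CPM against 55.3 and 49.1 CPM, that of 6 T and NK cell markers 46.5 and 96.1 CPM against 26.0 and 20.0 CPM, and that of 6 monocyte markers 41.2 and 45.8 CPM against 23.5 and 20.1 CPM, with none of these markers at 0. Cholangiocyte markers summed to 272 and 266 CPM under WT and 210 and 131 CPM under KO. Kupffer markers went the other way, at 1.61% and 0.895% under WT and 2.24% and 2.33% under KO. The labels overlapped for neutrophil markers (12.6 and 88.6 CPM under WT, 17.8 and 7.86 CPM under KO). They also overlapped for dendritic cell markers (25.3 and 33.4 CPM under WT, 29.0 and 21.8 CPM under KO). Hepatocytes themselves held 4.85 to 25.7 CPM of Tnfaip3 and HSCs 10.5 to 450 CPM, the highest in HSC library WT 32. The part of these cells in the Tnfaip3 level of ECs was not tested.

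The genes most like each member over the 16 libraries were found by Pearson's correlation of log2 CPM, as a description, since these points share cell types and libraries. Tlr13 was nearest to Csf1r (r = 0.98), Cd163 and Cybb, all macrophage genes. Tlr8 was the nearest gene to Tlr1 and Tlr1 the second nearest to Tlr8 (r = 0.98), after Nfam1 (r = 0.99), and both had P2ry12 among their 3 nearest genes. Tlr7 was nearest to Nlrc4 (r = 0.97) and Tlr2 to Entpd1 and Cd14 (r = 0.98 and 0.97), which ECs also held at 73.7 and 734 CPM. Tlr4 was nearest to Hps3, Arhgef2 and Tbc1d1 (each r = 0.98), Tlr3 to Parp4 (r = 0.98), Tlr6 to Ddx60 (r = 0.96), and Tlr9 to Rims4 (r = 0.99), a gene at 6.11 CPM in Kupffer cells. For Tlr5 the nearest gene, 0610040J01Rik, reached r = 0.92.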

How the data were processed

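The deposited files hold raw gene counts, whole reads per gene and library that the authors made from reads aligned to GRCm38; the submitters' processing notes name Trimmomatic 0.32, HISAT2 2.1.0, HTSeq 0.9.1 and edgeR, and the annotation release and the strand setting of the counting are not given in the sources used here. The labels name both Smart-seq2 and a stranded TruSeq kit. The 5 summary lines of each table, which hold reads given to no gene, were left out; they made up between 42.5% and 57.5% of a table. CPM was computed from the counts over gene rows. Tests used edgeR 4.0.16 (R 4.3.3) with quasi-likelihood fits, TMM factors and its expression filter, within each cell type for KO against WT and over all 16 libraries for cell types and for differences of label effects, with Benjamini-Hochberg adjustment over all genes tested and a threshold of 0.05; the standard error is the log2 difference divided by the root of F. All 10 members passed the filter over 16 libraries. Exon lengths came from GENCODE M21, which held 98.9% of the gene identifiers. Correlations used log2 CPM with a prior count of 2. Named genes were the 10 members in every comparison, pathway genes past the threshold between labels and the 2 most abundant of each role in each cell type, the 3 genes most correlated with each member, and Zeb2; other pathway genes given in the text were chosen after their values were seen. Marker lists covered endothelial, Kupffer, stellate, hepatocyte, B, T and NK, neutrophil, monocyte, dendritic and cholangiocyte genes. Replicates of each group differed by far more than counting noise (mean chi-square per gene from 32.4 to 120). The fits were tested on simulated data with 200 changed genes, drawn from genes above a minimum mean count. Of the genes called there between labels, 13.8% in ECs, 7.21% in Kupffer cells, 10.8% in HSCs and 6.43% in hepatocytes were unchanged ones. These shares lie above the threshold of 0.05. For ECs against Kupffer cells the share was 5.13%, and for the difference of their label effects 2.27%. In both of these simulations each gene had the same mean level in all cell types before the change. Promoter sequences were RefSeq's. The members and gene lists were chosen with earlier results of these data known. Alternatives were DESeq2 1.42.0, RLE factors, no filter, at least 10 counts in every library, WT libraries only, one fit of 16 libraries, no hepatocyte-enriched genes (at least 10 CPM in WT hepatocytes and 8 times WT Kupffer cells), each library left out, transcript length and, chosen after the data were seen, library totals without TMM.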

Additional observations from a re-analysis of the deposited data

Results flagged for a closer look

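Within the 4 libraries of a cell type, Dixon's ratio was above its critical value of 0.829 in 7 of the 40 sets formed by 10 genes and 4 cell types. Chance flags about 1 in 20 where values are normally distributed. That rate does not apply where 3 libraries hold no read, since the ratio is then 1 by construction. The share flagged over all genes is not given, so no excess among the members is shown. In ECs, Tlr2 in library WT 38 was at 38.5 CPM, far below the other 3 libraries (85.6 to 89.8 CPM). In Kupffer cells, Tlr5 in library WT 39 was at 3.72 CPM, above the others (0.402 to 0.948 CPM). In hepatocytes, Tlr13 in library WT 29 was at 1.40 CPM against 0.270 to 0.409 CPM. The remaining 4 rest on 1 library with reads among 3 without any: Tlr5 in EC WT 38 (0.621 CPM, 8 reads), Tlr9 in EC KO 46 (0.417 CPM, 6 reads), Tlr7 in hepatocyte WT 29 (0.0637 CPM, 1 read) and Tlr9 in hepatocyte WT 33 (0.0682 CPM, 1 read). Each pools 2 libraries of either label, and no label difference was shown to differ between cell types.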

How the results depend on the processing

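No paired analysis was possible because no 2 groups compared have a replicate number in common. In the label comparisons the number of members passing was 0 under every alternative with all libraries except HSCs with no filter (1, Tlr2), and 0 to 1 in ECs on leaving out a library. Between cell types, asking for at least 10 counts in every library removes members from the test by construction and left 4 (ECs and Kupffer cells), 1 (ECs and hepatocytes), 3 (Kupffer cells and HSCs), 1 (Kupffer cells and hepatocytes) and 1 (HSCs and hepatocytes). With no filter 3 passed between ECs and HSCs and 8 between ECs and hepatocytes; with WT libraries only 0 and, for HSCs and hepatocytes, 4; with library totals 0 for ECs and HSCs and 8 for ECs and hepatocytes; the cause was not tested. Leaving out 1 library gave 0 to 1 between ECs and HSCs. The shares of all genes passing between cell types under these settings are not given. No change particular to the members is therefore shown. Of the 36 called differences between cell types none turned under any alternative listed in the methods; with WT libraries only 10 of them lost the call and with library totals 2 did. Taking the longest transcript as length kept 36 of 40 ranks.

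Between labels, in hepatocytes library totals turned Tlr2 to -0.0040 and Tlr5 to -0.059. Leaving out 1 library turned the sign of many uncalled values. In ECs the log2 differences ran from -0.10 to 1.38 for Tlr1, -0.23 to 0.54 for Tlr4 and -0.97 to 0.36 for Tlr3. In Kupffer cells they ran from -0.42 to 0.017 for Tlr1, -1.46 to 0.61 for Tlr4, -2.03 to 0.94 for Tlr5, -0.72 to 0.43 for Tlr6, -0.76 to 1.23 for Tlr3, -0.41 to 0.61 for Tlr8 and -0.21 to 1.66 for Tlr13. In HSCs they ran from -7.09 to 1.67 for Tlr1, -2.51 to 0.14 for Tlr2, -0.41 to 1.01 for Tlr6, -3.08 to 1.49 for Tlr7, -4.15 to 0.58 for Tlr8 and -2.20 to 0.49 for Tlr13, and in hepatocytes from -0.45 to 0.99 for Tlr2, -0.31 to 0.48 for Tlr5 and -6.35 to 0.74 for Tlr6. Over all genes, 305 passed in ECs; DESeq2 gave 996, no filter 1259, at least 10 counts 489, library totals 190, no hepatocyte-enriched genes 0 and leaving out a library 3 to 692. In Kupffer cells, HSCs and hepatocytes 0 passed, with 706, 1260 and 821 at an unadjusted p under 0.05; DESeq2 gave 75, 407 and 31, no filter 159, 663 and 227, and one fit of 16 libraries 178 in HSCs. Depth limits Tlr9 and Tlr5 in ECs and HSCs and most members in hepatocytes, where counts were near the floor.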

Other observations

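Markers of other blood and bile duct cells were present at low levels. The summed level of 6 B cell markers reached 195 CPM in EC library WT 38 and 94.8 CPM in WT 34, against 49.1 to 55.3 CPM in the KO libraries, and 65.6 to 133 CPM in Kupffer cells. That of 6 T and NK cell markers was 46.5 to 96.1 CPM in WT and 20.0 to 26.0 CPM in KO ECs. Neutrophil markers, which belong to a cell type known to express Tlr2, summed to 128 CPM in Kupffer library KO 27 against 17.5 to 19.6 CPM in the other 3 Kupffer libraries, where Tlr2 and Tlr13 were not highest or lowest in KO 27. Monocyte markers summed to 299 to 400 CPM in HSCs, 104 to 231 in Kupffer cells and 20.1 to 45.8 in ECs. Dendritic cell markers summed to at most 35.5 CPM in any library, and cholangiocyte markers ranged from 41.9 CPM in HSCs to 272 CPM in ECs. Stellate markers stood at a median of 0.481% to 2.05% of their HSC level in ECs, and endothelial markers at 2.18% to 4.89% of their EC level in Kupffer cells and 1.33% to 4.97% in HSCs. The part of these cells in any receptor's level was not tested.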
